A study of Mus musculus with 8 samples.

Results

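H3K4me3, trimethylation of lysine 4 on histone H3, was described at 4 genes of the nervous system, Lhx1, Scrt2, Tubb2b and Mex3a, in the brains of mouse embryos at E12.5, the stage given in days of gestation. Each gene was represented by a window of the mouse build mm9: chr11:84328000-84344000 for Lhx1, chr2:151902000-151916000 for Scrt2, chr13:34215000-34228000 for Tubb2b and chr3:88332000-88345000 for Mex3a. All peaks overlapping a window were taken, 65 of the 74232 peaks in the series. The windows were chosen by the measured difference in peak width between genotypes, so the narrower mark in the knockout is a property of the choice. It is given below as a description, with no test. The rule set no threshold of width or fold. The link between a window and its gene was taken from the rule and was not checked against an annotation of mm9.

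The controls, WT, are wild type brains without Cre (2 libraries). The knockouts, dKO, lack Lats1 and Lats2 through Nestin-Cre (2 libraries). Both groups come from a mixed strain background and the same stage, and all 4 libraries used the same H3K4me3 antibody. Nestin-Cre acts in neural progenitors and the cells that descend from them, so cells of another origin in the dissociated brain, such as microglia, keep Lats1 and Lats2. Cre was present only in dKO, so its effect cannot be told apart from that of the deletion.

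H3K4me3 is placed by the SET1 and MLL methyltransferase complexes around the start sites of active or poised genes, mostly where CpG dinucleotides are dense. Genes that define a cell type often carry a broad domain of the mark that runs well into the gene. LATS1 and LATS2 are the kinases of the Hippo pathway that keep the coactivators YAP and TAZ out of the nucleus, where these work through TEAD transcription factors. Lhx1 encodes a LIM-homeodomain transcription factor of early-born neurons such as Purkinje cells and spinal interneurons. Scrt2 encodes a zinc-finger repressor of the Scratch family, made in newly post-mitotic neurons. Tubb2b encodes a beta-tubulin of the microtubules of migrating and axon-growing neurons. Mex3a encodes an RNA-binding protein with KH domains and a RING finger and is better known from stem and progenitor cells than from neurons. A peak list shows neither expression nor the cell type that carried the mark, so the label of neuronal genes could not be checked against these data.

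The sequences just before the start sites are shown because CpG density is the feature of a promoter that bears most directly on this mark. RefSeq promoters of build GRCm38.p6 were matched by symbol for 2 of the 4 genes, Lhx1 (minus strand) and Mex3a (plus strand). The 250 bases before the start are printed 5′ to 3′ on the strand of the gene, with each CpG in capitals.
Lhx1: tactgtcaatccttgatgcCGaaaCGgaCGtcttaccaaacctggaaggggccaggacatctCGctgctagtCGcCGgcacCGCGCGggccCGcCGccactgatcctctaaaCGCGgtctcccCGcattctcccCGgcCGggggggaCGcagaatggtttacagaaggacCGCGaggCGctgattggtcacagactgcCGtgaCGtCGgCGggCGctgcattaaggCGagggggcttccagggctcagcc
Mex3a: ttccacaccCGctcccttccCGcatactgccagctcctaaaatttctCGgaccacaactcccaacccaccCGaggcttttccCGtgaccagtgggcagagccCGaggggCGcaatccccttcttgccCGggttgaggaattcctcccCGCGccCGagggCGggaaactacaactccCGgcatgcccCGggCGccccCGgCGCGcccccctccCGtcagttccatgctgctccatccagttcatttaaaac
The Lhx1 promoter held 26 CpG and the Mex3a promoter 19, against a median of 6.0 over 32841 promoters of the same length. At least as many as in Lhx1 were found in 9.59% of all promoters, and at least as many as in Mex3a in 19.7%. The GC content was 64.8% and 64.0%, with a median of 52.4% overall. The letters GGAATG, a form of the site bound by TEAD factors, were searched on both strands and occurred in neither promoter, while 12.6% of all promoters held them. This says only that the letters are not in these windows. Because the builds differ, the start sites were not placed on the peaks.

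Peak lists came from all 4 libraries, and no list gives read counts, so depth is unknown. The lists ranged from 17367 peaks covering 17.3 Mb in dKO replicate 2 to 19486 peaks in WT replicate 1, and the broadest coverage was 21.4 Mb in WT replicate 2. dKO replicate 2 had the shortest list and the lowest median score. Regions marked in every library had a median width of 1161 and 1222 bp in WT replicates 1 and 2, and of 1128 and 1033 bp in dKO replicates 1 and 2. These regions were therefore narrower in the dKO lists over the series, while the median width of all peaks overlapped between genotypes (920 and 984 bp in WT against 960 and 888 bp in dKO). The part of library quality in the differences below was not tested. A brain holds many cell types, and fewer cells carrying a mark cannot be told apart from less mark per cell.

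The domains in the 4 windows were among the broadest in the WT lists. Peaks within 1000 bp of each other were chained into domains, and each window held 1 domain. Ranked by the mean WT sequence under peaks among 13573 domains marked in all libraries, Mex3a stood at 21, Tubb2b at 23, Lhx1 at 39 and Scrt2 at 162. The choice of windows used the WT widths too, so these ranks only describe the chosen domains. The domain boundaries over all libraries spanned 9035 bp at Tubb2b, 7750 bp at Mex3a, 7650 bp at Lhx1 and 4375 bp at Scrt2.

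The width of the mark, meaning the summed length of the peaks in a window, was lower in both dKO libraries than in both WT libraries at each of the 4 genes, as the choice required. At Lhx1 the mean was 2432 ± 605 bp in dKO against 5967 ± 1170 bp in WT (SD, n = 2 each), 59.2% lower. At Tubb2b the WT and dKO means were 7112.5 ± 441 and 5291.5 ± 135 bp, 25.6% lower, and at Mex3a 7325.5 ± 180 and 5430 ± 636 bp, 25.9% lower. Scrt2 had the smallest difference, from 4166 ± 96.2 to 3445 ± 24.0 bp, 17.3% lower. Widths that did not overlap between genotypes in this direction were common in the series: 39.1% of the 14943 union regions (overlapping peaks of the 4 lists merged) with a peak in every library had them, and 48.6% of those with at least 2000 bp in the WT mean. Among chained domains the shares were 41.6% of all and 52.7% of the 2612 with at least 2000 bp, the wide domains below. Since the genes were chosen on this contrast, nothing about them is read from these shares.

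Wide domains as a whole were lower in dKO by a median of 8.45%, with the middle of the distribution between 3.72% and 15.1%. A mean at least 25% lower together with groups that did not overlap was seen in 8.35% of them. Lhx1, Tubb2b and Mex3a are among those domains and Scrt2 is not. The choice of the genes favoured this, so nothing is read from it. Tubb2b (25.6%) and Mex3a (25.9%) lay just past the limit of 25%. After each library was scaled to its median width, the differences were 55.5% at Lhx1, 18.4% at Mex3a, 18.0% at Tubb2b and 8.75% at Scrt2. The scaled groups still did not overlap at any of the 4, but at Scrt2 the nearest values were 3809.6 bp in WT replicate 2 and 3769.8 bp in dKO replicate 2. In the scaled widths 16.3% of all union regions kept the groups apart in this direction.

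**Figure D1:**
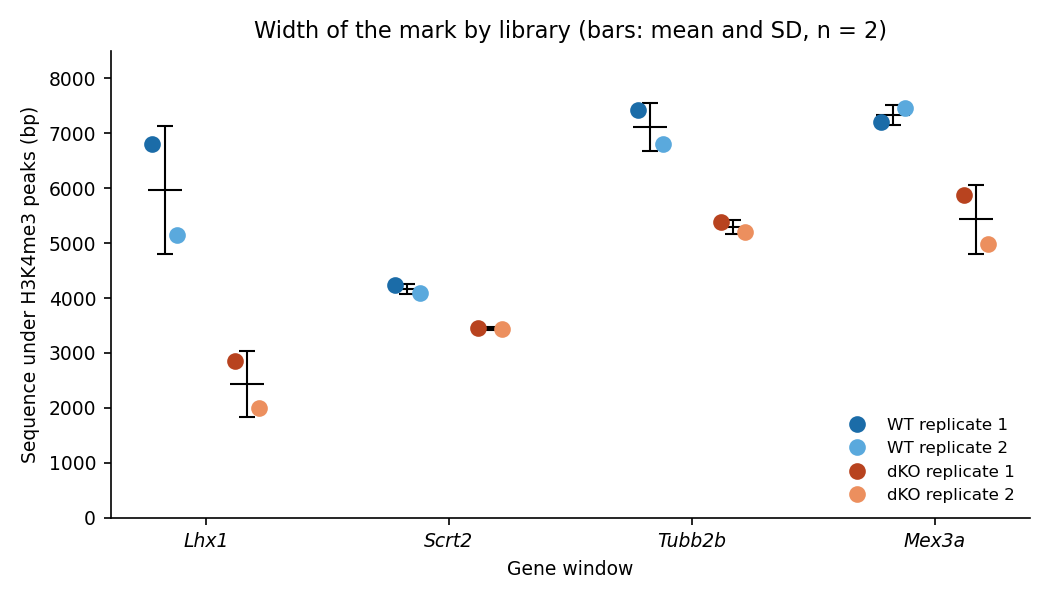
Sequence under H3K4me3 peaks (bp) in the window of each gene, with a point for each library and bars for the mean and SD of the 2 libraries of a genotype. The WT points lie above the dKO points at each gene, which the choice of genes required, and the drop is widest at Lhx1 (59.2%) and narrowest at Scrt2 (17.3%).

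At Lhx1 the mark was 6794 bp wide in WT replicate 1 and 5140 bp in WT replicate 2, against 2860 and 2004 bp in dKO replicates 1 and 2. It was broken into 5, 7, 7 and 3 peaks in that order. The libraries of a genotype also differed from each other: WT replicate 1 had a single peak of 2829 bp, chr11:84335411-84338239, within which WT replicate 2 had separate peaks of 570 and 1081 bp. The same stretch held peaks of 269, 215 and 321 bp in dKO replicate 1 and of 306 and 220 bp in dKO replicate 2. Peaks filled 89.8% and 69.4% of the distance from the first to the last marked base in WT, and 40.0% and 57.6% in dKO. The first marked base of dKO replicate 1, 84333749, lay between those of the WT libraries (84333755 and 84333671), so the domain of that library reached as far on the low side, with short separate peaks between. dKO replicate 2 had no peak before 84336350 or after 84339829. The longest stretch marked in every library was chr11:84338388-84339626, 1239 bp, and the peak over it was 2007 and 2096 bp wide in WT and 1239 and 1478 bp in dKO. Counted by that peak alone, the difference at Lhx1 was 33.8%.

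Scrt2 carried the most compact domain of the 4. The mark covered 4234 and 4098 bp in WT against 3462 and 3428 bp in dKO. It was called as 2 peaks and 1 peak in WT and as 3 and 1 in dKO, so the number of pieces did not separate the genotypes. The start of the domain was at 151906091 and 151906139 in WT and at 151906165 and 151906127 in dKO. The main peak ended at 151910465 and 151910236 in WT and at 151909511 and 151909554 in dKO. Beyond it, dKO replicate 1 had a further peak of 246 bp that ended at 151910070, and dKO replicate 2 had none. The difference at Scrt2 thus lay at the high-coordinate end.

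At Tubb2b the dKO lists held less of the mark in the central region with its shoulder and in the outermost peak on each side. The mark covered 7424 and 6801 bp in WT against 5387 and 5196 bp in dKO, in 5 and 7 and in 5 and 6 peaks. The central peak was 3050 bp in WT replicate 2, 3450 bp in dKO replicate 1 and 3004 bp in dKO replicate 2. It was 4572 bp in WT replicate 1, where it ran on without a break to 34224720. The groups overlapped for this peak, with ends at 34224720 and 34223095 in WT and at 34223430 and 34223193 in dKO. The WT replicate 2 list held the rest of that shoulder as separate peaks of 236 and 1026 bp, and the dKO lists as peaks of 417 and 396 bp. With those pieces counted, the central region chr13:34219981-34224964 held 4572 and 4312 bp in WT against 3867 and 3400 bp in dKO, so the genotypes separated there once the shoulder was included. They also separated at the ends of the domain: the outermost peak on the low side was 1050 and 1033 bp in WT against 782 and 596 bp in dKO, and the outermost on the high side was 664 and 537 bp in WT against 388 and 356 bp in dKO. The peak next to the former was missing only from dKO replicate 1, with widths of 578, 642 and 619 bp in WT replicates 1 and 2 and dKO replicate 2.

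Mex3a had a domain of 3 peaks in both WT libraries, with nearly the same boundaries in each. The mark covered 7198 and 7453 bp in WT against 5880 and 4980 bp in dKO. The middle peak hardly differed, at 2000 and 2032 bp in WT against 1967 and 1915 bp in dKO. The last peak was 4579 and 4803 bp in WT against 3076 and 3065 bp in dKO, and its ends in the dKO lists, 88339316 and 88339317, were 1 bp apart. In WT it ended at 88340817 and 88341046. Within that stretch dKO replicate 1 had only small peaks of 226 and 224 bp, and dKO replicate 2 had none. The first peak was 619 and 618 bp in WT against 387 bp in dKO replicate 1, and was absent from dKO replicate 2.

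**Figure D2:**
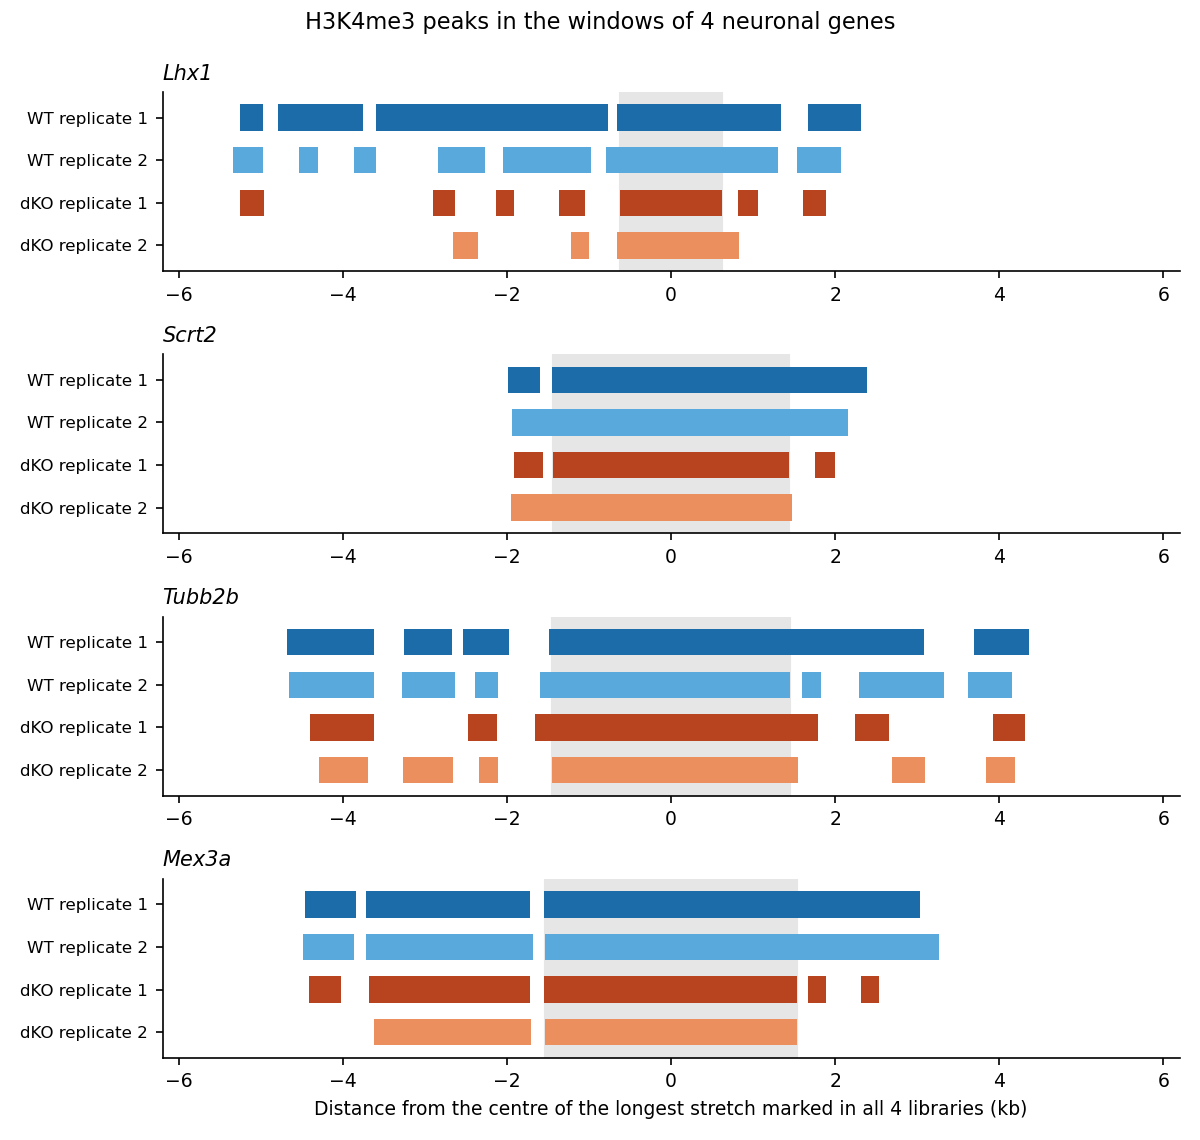
Peaks of each library in the 4 windows, drawn to scale against the distance (kb) from the centre of the longest stretch marked in all libraries, which is shaded. At Mex3a and Scrt2 the dKO peaks end short on the right, the Lhx1 domain is thinned out on both sides of its centre, and at Tubb2b the shoulder and the outermost peaks are shorter.

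The edge at which the mark differed was read from the peak over the longest shared stretch of each window, a measure chosen after the peaks had been seen, and from the outer ends of the domain. The low-coordinate edge of that peak hardly moved at 3 genes: on average it lay 5.5 bp further in for dKO at Mex3a, 4 bp further in at Scrt2 and 12 bp further out at Tubb2b. The Scrt2 starts spread over 514 bp, but libraries of both genotypes stood at each end of that spread. At Lhx1 the edge lay 94.5 bp further in. The high-coordinate edge lay further in by 1615 bp at Mex3a, 818 bp at Scrt2, 598.5 bp at Lhx1 and 596 bp at Tubb2b. At the first 3 of these, both dKO edges were inside both WT edges. At Tubb2b the mean rests on WT replicate 1, since the edge of WT replicate 2 was inside those of both dKO libraries. Without WT replicate 1 the dKO edge lay 216.5 bp further out, and without WT replicate 2 it lay 1408.5 bp further in. Edges that separated the genotypes in this direction were found on the high side in 39.3% and on the low side in 38.0% of the 1815 shared peaks with at least 2000 bp in WT. Over all 1815 peaks, with edges separated or not, the median displacement was 78 bp on the high side and 70 bp on the low side. A displacement of at least 500 bp with separated groups at a single edge, on either side, occurred in 10.9% of these peaks. Scrt2 and Mex3a are among them, but a choice by width favours such edges, so nothing is read from these shares. At Lhx1 both edges separated. The outer ends of the whole domain gave another picture. The first marked base of dKO lay further in by 1336.5 bp on average at Lhx1, 458 bp at Mex3a, 319 bp at Tubb2b and 31 bp at Scrt2. The last marked base moved by -835 bp at Lhx1, -1112 bp at Mex3a, -538.5 bp at Scrt2 and 2 bp at Tubb2b. At Tubb2b the first bases separated the genotypes, at 34216966 and 34216984 in WT and at 34217236 and 34217352 in dKO, and the last bases overlapped. Without dKO replicate 2, which lacked the outermost low-side peak at Lhx1 and Mex3a, the shift of the first base was 36 bp at Lhx1 and 63.5 bp at Mex3a, and that of the last base was -301.5 bp at Lhx1, -609.5 bp at Mex3a and -280.5 bp at Scrt2. Without dKO replicate 1 these were 2637 and 852.5 bp for the first base and -1368.5, -1614.5 and -796.5 bp for the last. The side that receded therefore depended on the gene and on the measure.

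RefSeq places Mex3a on the plus strand and Lhx1 on the minus strand. If the orientation of these regions is the same in both builds, which was not checked, the high-coordinate side runs along the direction of transcription at Mex3a and against it at Lhx1. In the RefSeq order of genes, a long non-coding RNA gene is next to each of the 4: Lhx1os beside Lhx1, AA387200 and Gm31475 on either side of Scrt2, 4930447K03Rik and Gm36500 on either side of Tubb2b, and Gm38618 beside Mex3a. The order gives no distances, so whether any of these genes lies in a window was not checked. Whether the peaks of a window belong only to the named gene was not tested.

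**Figure D3:**
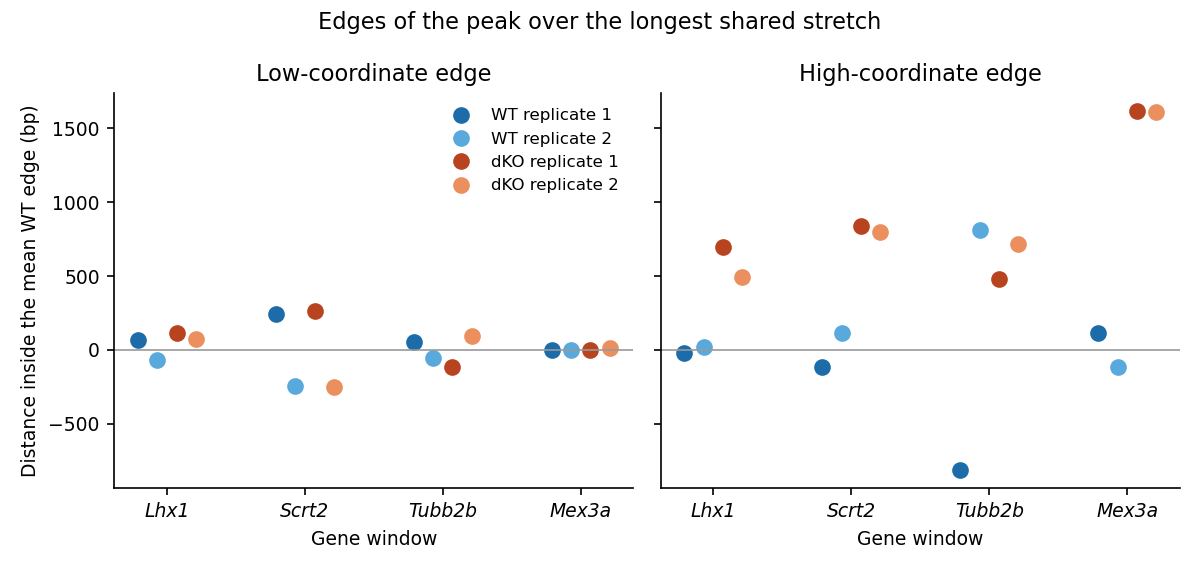
Position of each edge of the peak over the longest shared stretch, as the distance (bp) inside the mean WT edge, with a point for each library. Low-coordinate edges of the genotypes intermix at Scrt2, Tubb2b and Mex3a, while high-coordinate edges of dKO lie further in at Lhx1, Scrt2 and Mex3a (1615 bp on average at Mex3a).

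Base by base, the 4 domains differed in how much of the mark every library shared. Of the bases under a peak in any library, 72.8% were marked in all libraries at Scrt2, 66.3% at Mex3a, 49.4% at Tubb2b and 19.7% at Lhx1. Over all wide domains this share was 72.7%. Bases marked in both WT but neither of the dKO libraries made up 19.9% at Lhx1 (1453 bp), 17.2% at Mex3a (1288 bp), 9.97% at Scrt2 (436 bp) and 6.01% at Tubb2b (480 bp), against 4.03% over all wide domains. Bases marked in both WT libraries and in a single dKO library took a larger share than these in 3 sets, with 24.1% at Lhx1, 23.7% at Tubb2b and 7.81% over all wide domains, and a smaller share at Mex3a (12.2%) and Scrt2 (7.66%). Bases marked in dKO alone, by either or both libraries, were 0.827% at Tubb2b, 0.192% at Lhx1 and 0 at the other genes. Over all wide domains they were 1.98%. At Lhx1 the largest class, 33.2%, was marked in a single WT library and no dKO library, against 7.76% over all wide domains. A choice of genes by narrower dKO peaks favours bases marked only in WT. These shares therefore describe the chosen domains, and their distance from the wide domains is not read as a result.

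The longest runs marked in both WT but neither of the dKO libraries were chr11:84337089-84337640 at Lhx1 (552 bp) and, at Mex3a, chr3:88340323-88340817 (495 bp) and chr3:88339677-88340098 (422 bp). At Scrt2 the longest was chr2:151909555-151909824 (270 bp), and at Tubb2b chr13:34216984-34217235 (252 bp), at the low end of the domain.

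**Figure D4:**
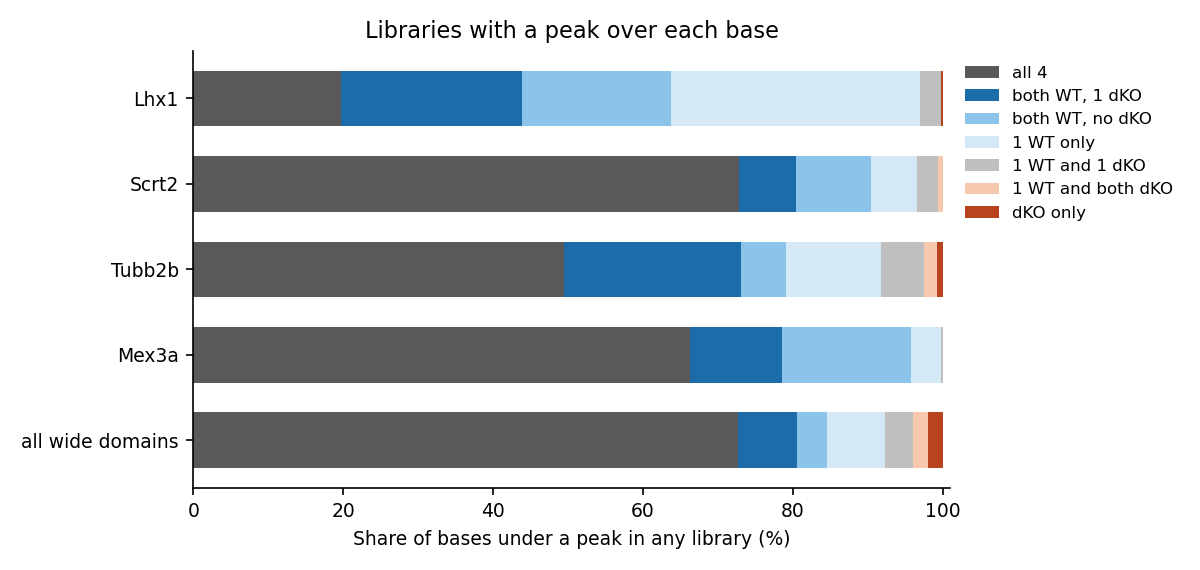
Share (%) of the bases under a peak in any library, divided by the libraries that mark them, for each gene and for all 2612 domains with at least 2000 bp in the WT mean. The part marked in all libraries is 19.7% at Lhx1 and 72.8% at Scrt2.

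The deposited scores placed the 4 domains differently within their lists. A score is used here only for its percentile in its own list, and no change between lists is read from it. The best Tubb2b peak stood at percentiles 76.3 and 98.4 in WT and at 89.9 and 95.5 in dKO. The best Mex3a peak stood at 78.9 and 78.3 in WT and at 86.6 and 88.7 in dKO. For Scrt2 the values were 64.6 and 82.4 in WT and 45.9 and 31.6 in dKO. The best Lhx1 peak stood at 33.0 and 55.1 in WT and 28.9 and 26.8 in dKO, below the middle of every list except that of WT replicate 2. It was low for a domain of its width. Of the 200 domains with the largest WT width, 3 had a lower best score in WT replicate 1 and 24 in WT replicate 2. The median of the 200 stood at percentiles 76.5 and 77.9 in these lists. In dKO replicates 1 and 2, 5 and 4 of the 200 had a lower best score. The choice of windows also used the WT width, so this is a description of Lhx1 only. The best peak is the highest by definition, so outer pieces are given only for their own place in the lists. The first Mex3a peak, which dKO replicate 2 lacked, stood at 12.8 and 37.1 in WT, and the outermost low-side peak of Tubb2b at 23.0 and 22.8.

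**Figure D5:**
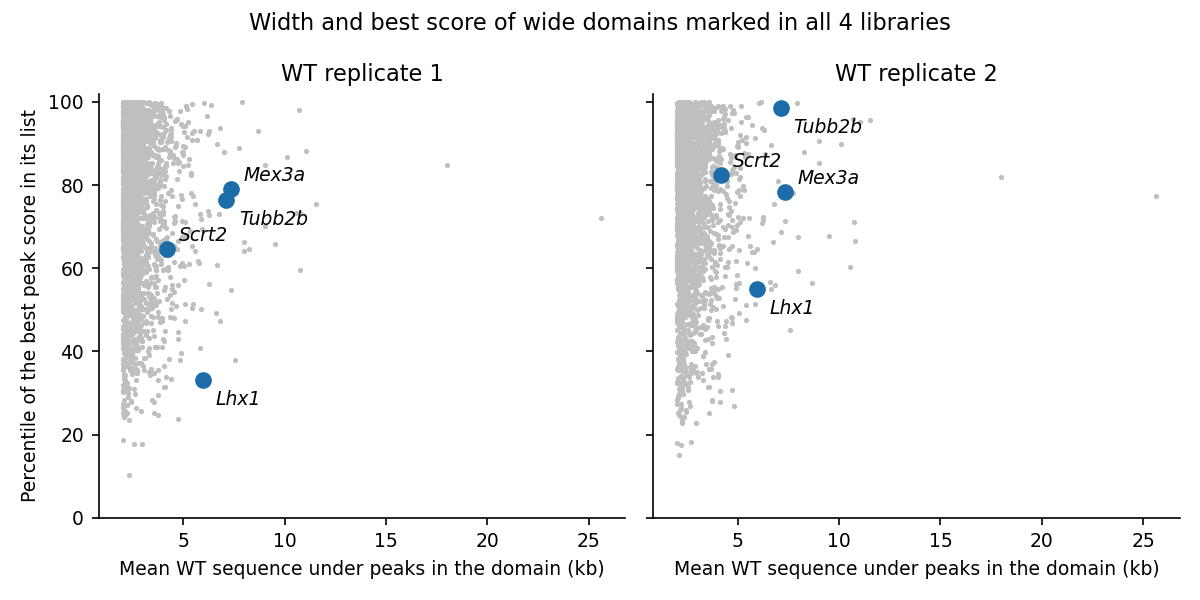
Percentile of the best peak score in its list against the mean WT sequence under peaks (kb) for the 2612 wide domains, in each WT library. Lhx1 lies low for its width (percentiles 33.0 and 55.1), and Tubb2b and Mex3a lie higher (76.3 and 78.9 in WT replicate 1).

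Peaks outside the windows, within 100 kb on either side, were not used by the choice. Around Lhx1 they covered 1158 and 1323 bp in WT against 1285 and 1046 bp in dKO. The groups overlapped there, while the window itself differed by 59.2%. Around Scrt2 they covered 4033 and 5167 bp in WT against 4417 and 3124 bp in dKO, 18.0% lower on average, close to the 17.3% of the window itself, but also with overlap. Around Tubb2b the values were 4520 and 4247 bp in WT against 4158 and 3765 bp in dKO, 9.63% lower on average and with no overlap. Around Mex3a they were 9182 and 10015 bp in WT against 8190 and 7768 bp in dKO, 16.9% lower and again with no overlap. The whole lists did not overlap either, with 20.3 and 21.4 Mb under peaks in WT against 19.3 and 17.3 Mb in dKO. Sums over flanks of other genes were not computed, so these differences are not read as local. Of the domains in these flanks with a peak in all libraries, both dKO widths were below both WT widths in 0 of 1 around Lhx1, 1 of 5 around Scrt2, 2 of 4 around Tubb2b and 3 of 5 around Mex3a. Over all such domains the share was 41.6%, as given above. An exact permutation test of 2 libraries against 2 cannot give a two-sided p below 0.33, so these values are given without a test.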

How the data were processed

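H3K4me3 chromatin immunoprecipitation and sequencing gave 1 deposited peak list for each of 4 libraries (2 WT, 2 dKO), with the start, end and score of each peak. Input libraries were not analysed here. The submitters' processing notes name MACS2 2.1.1.20160309, a peak caller, BWA 0.7.12-r1039, an aligner, and also bedtools, SAMtools, Picard 2.6.0 and R 2.14.0, on build mm9. Their roles and thresholds are not given in the sources used here. The deposited score has no stated scale and is at least 13 in all lists.

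Positions are counted from 1. Peaks overlapping a window were counted whole. Union regions merge peaks that overlap by at least 1 bp, and domains chain peaks within 1000 bp. Promoter sequences and gene order came from RefSeq (GRCm38.p6). The reference is of another build, so other neuronal genes were not placed. Each member was also set beside the 2 regions nearest in its 4 centred log2 widths. The members and lists were chosen with earlier results of these data known. No test was run on the members. Labels do not name the animal behind each library. Code was tested on simulated data. Python 3.11.15, pandas 2.3.3, numpy 2.4.6 and matplotlib 3.10.9 were used.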

Additional observations from a re-analysis of the deposited data

How the results depend on the processing

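No paired analysis was possible because the values come from no test, and the mean difference is the same with libraries paired by number or not. The dKO width stayed below the WT width at each of the 4 genes under every alternative run. With a library left out, the difference ranged from -2708 to -4362 bp at Lhx1, -653 to -789 bp at Scrt2, -1509.5 to -2132.5 bp at Tubb2b and -1445.5 to -2345.5 bp at Mex3a. Scaling to the library medians moved it from -721 to -348 bp at Scrt2, from -1821 to -1223.6 bp at Tubb2b and from -1895.5 to -1286.6 bp at Mex3a, and moved the share of union regions with separated widths from 39.1% to 16.3%. At Scrt2 it was -844 bp with lists of 17367 peaks, -569.5 bp with peaks within 1000 bp joined and -822 bp without peaks under 500 bp. Without these short peaks it was -2630.5 bp at Tubb2b. Counting only the peak over the longest shared stretch, an alternative chosen after the data were seen, gave -693 bp at Lhx1 in place of -3535, -822 bp at Scrt2 and -584 bp at Tubb2b, where the genotypes then overlapped. Unknown depth limits all widths, since a short or weak peak can be missing only because it fell below the caller's threshold.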

Other observations

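The Mex3a domain held a narrow unmarked stretch at nearly the same place in every library. No list had a peak at chr3:88336096-88336238, 143 bp. The unmarked distance between the peaks on either side was 176 and 148 bp in WT against 176 and 175 bp in dKO. The ends of the peaks before it spread over 33 bp across the 4 libraries and the starts of the peaks after it over 14 bp, while the far ends of the latter spread over 1730 bp. At Tubb2b the gap before the central peak was less regular, at 479 and 519 bp in WT against 459 and 660 bp in dKO. These gaps were singled out after their values were seen.

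At Scrt2 the libraries numbered 1 of both genotypes shared a break near the low end of the domain that those numbered 2 did not have. The main peak started at 151906621 in WT replicate 1 and at 151906641 in dKO replicate 1, and at 151906139 and 151906127 in the replicates numbered 2. The labels do not say that a number marks a shared batch.

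By a fixed rule, each gene's widest union region was set beside the 2 regions with the most similar 4 log2 widths, each centred on the median of its library, a description over 4 libraries. This centring is the same for all regions, so the match is on the width itself and not on its pattern alone. The nearest to Scrt2 were chr4:71857914-71862029 (distance 0.091) and chr11:94852292-94856466 (0.107), and those to Tubb2b were chr3:93247385-93252014 (0.124) and chr2:136939186-136943629 (0.141). For Mex3a they were the Tubb2b region (0.254) and the Scrt2 region (0.303). The genes were chosen on these same widths, which favours members lying near each other, so nothing is read from that match. Lhx1 had no close match, the nearest being chr13:55585178-55589451 (0.778) and chr13:69875795-69879967 (0.825).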
